A study of Mus musculus with 32 samples.

Results

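Of 32 libraries, 8 were compared here, namely the 4 streptavidin pulldowns and the 4 inputs made from mouse neurons that carried Pan-TurboID and were depolarized with KCl. They were chosen by the group and replicate number in their titles, and a pulldown was paired with the input of the same number, because both came from 1 lysate. The depolarized state was examined alone. The question was which RNAs are over- or under-represented among RNAs crosslinked to biotinylated protein, relative to all RNA of the same depolarized cells.

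The cells were primary cortical neurons of CD-1 mouse embryos. They were transduced with lentivirus in which doxycycline switches on the ligase from a TRE3GS promoter, so expression was not limited to a neuronal cell type by the promoter. Depolarized Pan cultures were silenced with tetrodotoxin and DL-AP5 for 2 h, exposed to 55 mM KCl for 1 h and returned to silencers for 30 min. Resting Pan cultures received no KCl, and no silencing time is given for them, so whether they received the silencers is not stated. PSD95 cultures carried TurboID-PSD95, which is directed to the postsynapse, in place of the unlocalized ligase. All 8 groups of 4 libraries received cycloheximide for 2 min and then biotin for 30 min, and all were irradiated with ultraviolet light in pulses of 400 and 200 mJ/cm2. Of each lysate 15% was kept as input and the rest was bound to streptavidin beads. No pulldown without biotin or without the ligase was analysed here, so RNA that stays on the beads without a biotinylated protein was not measured.

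TurboID is a biotin ligase that tags proteins close to it within minutes, and without a localization signal it tags proteins throughout the cell. Ultraviolet light joins RNA covalently to protein that touches it, so that RNA can be carried along when biotinylated protein is captured. KCl depolarization opens voltage-gated calcium channels, and the calcium that enters is known to switch on immediate early genes and to alter translation in neurons. An RNA that is higher in the pulldown than in the input was recovered in a larger share of the reads, and in bulk libraries this cannot be told apart from a lower share of the RNAs around it. Transcripts are given by their UCSC identifiers in the mm10 annotation, since 0 of the 51884 transcript models could be matched to a gene name with the tables at hand. For the same reason the neuronal identity of the cultures could not be checked against marker genes.

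The pulldowns held 10113080, 7029423, 10264876 and 15415215 estimated counts in lysates 1 to 4, against 9418007, 8498956, 9061882 and 6877460 in the inputs, within a range of 2949123 to 19323465 over the 32 libraries. More transcripts reached 10 counts in the pulldown of each lysate, namely 28052, 21692, 25888 and 29509 in pulldowns against 23414, 19618, 19268 and 9773 in inputs. The mean difference was 8267, higher in 4 of 4 lysates, and the two-sided exact test over sign flips gave p = 0.13, the smallest that 4 pairs can give. Lysate 4 contributed most of it, and the mean difference without that lysate was 4444. When every library was reduced at random to 612818 counts outside 3 dominant transcripts, the pulldowns still held more detected transcripts in 4 of 4 lysates, with 11481, 11177, 12238 and 11529 in pulldowns and 9979, 10256, 10703 and 9957 in inputs.

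The input of lysate 4 stood apart from the other 7 libraries. A single transcript, uc009sgd.1 (3881 nt), took 84.8% of its counts, which left 612945 counts for transcripts other than the 3 dominant ones. In 6 of the 32 libraries 1 transcript took over 50% of counts, and 2 of those 6 were the depolarized Pan inputs of lysates 3 and 4. The estimated mean fragment length, taken from the gap between full and effective transcript length, was also shorter in each pulldown, at 149, 153, 159 and 142 nt in pulldowns and 159, 155, 167 and 199 nt in inputs (exact sign-flip p = 0.13). The mean difference in fragment length was −19.2 nt with all lysates and −6.36 nt without lysate 4. Among resting Pan pairs, 1 of 4 pulldowns had the shorter fragments. The part of fragment length in the results that follow was not tested.

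**Figure D1:**
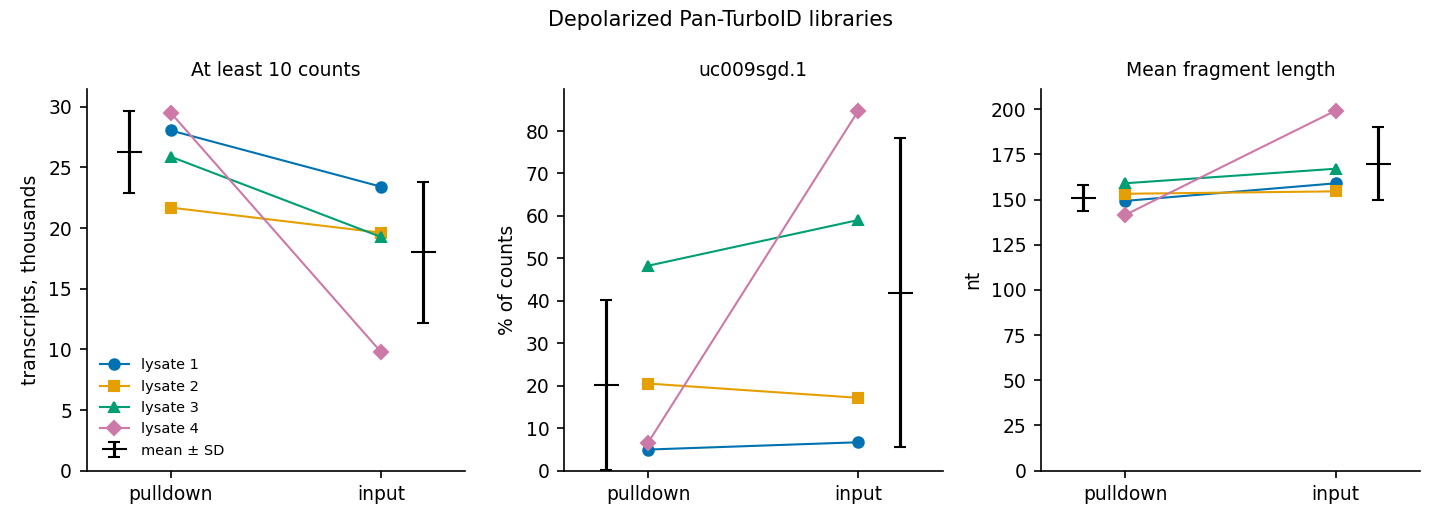
Transcripts with at least 10 counts (axis in units of 1000), the share of counts of uc009sgd.1 (%) and the mean fragment length (nt) in the pulldown and the input of each depolarized Pan lysate. Lines join the pair of a lysate, and black bars are the mean ± SD over 4 lysates. The pulldown lies above its input in transcripts detected and below it in fragment length in 4 of 4 lysates, and the input of lysate 4 carries 84.8% uc009sgd.1.

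The dominant transcripts were 3 that averaged over 1% of counts in the 8 libraries, and each had estimated counts that were whole, within a tolerance of 0.001, in all 32 libraries. The first of them, uc009sgd.1, made up 4.97%, 20.5%, 48.3% and 6.58% of pulldown counts and 6.69%, 17.2%, 59.0% and 84.8% of input counts in lysates 1 to 4. Its share was lower in the pulldown in 3 of 4 lysates, the groups overlapped, and its fitted change of −2.73 on the log2 scale did not pass (adjusted p = 0.103). It is uncertain which RNA of the cell uc009sgd.1 stands for, since no gene name could be given.

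The shortest dominant transcript, uc033jng.1 (123 nt), took 1.62% ± 1.13 of counts in pulldowns and 3.52% ± 1.90 in inputs (SD, n = 4 each). Its fitted change was −4.98 (adjusted p = 3.09e-05), but the lysates gave −1.10, −0.05, −1.30 and −7.34, and without replicate 4 the fitted change was −0.41. The difference of uc033jng.1 therefore rested on lysate 4, and it did not pass in edgeR's quasi-likelihood test (adjusted p = 0.17). With the lysate in place of the replicate number as block in limma it was −1.13 (adjusted p = 0.819).

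A different course was seen for uc012eno.1 (334 nt), which had 4928, 2474, 6196 and 7876 CPM (counts per 1000000, with library sizes scaled by the trimmed mean of M values, TMM) in pulldowns and 24811, 12117, 85025 and 45853 CPM in inputs. On that scale every pulldown lay below every input, and the lysates gave changes of −2.33, −2.29, −3.78 and −2.54. As a share of all counts the groups overlapped, with 0.776%, 0.333%, 0.546% and 1.21% in pulldowns and 3.05%, 1.53%, 4.35% and 0.644% in inputs, so that the share was lower in 3 of 4 pulldowns and higher in lysate 4 (exact sign-flip p = 0.25). The lysate mean was −2.74 ± 0.70 (SD, n = 4), about 0.150 times the input level. The fitted change of −2.0 (SE 0.18, adjusted p = 1.48e-07) lay outside the range of the 4 lysates, and edgeR gave an adjusted p of 1.09e-05. The call of uc012eno.1 was lost when replicate 4 was left out of all groups (−2.94, adjusted p = 0.0719), when only the depolarized Pan pair of lysate 4 was (−2.92, adjusted p = 0.205), without the libraries over 50% (adjusted p = 0.215) and with no filter (adjusted p = 0.359). Its lysate means were −3.09 in resting Pan cultures and −2.86 in depolarized PSD95 cultures, so uc012eno.1 was the least retained of the 3 in each of them.

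Across the 34696 transcripts tested, 922 were higher and 1157 were lower in the depolarized Pan pulldowns than in their inputs at an adjusted p of 0.05 (limma with voom and sample quality weights, replicate number as a block). These are 2.66% and 3.33% of all transcripts tested, and 6980 had an unadjusted p under 0.05. The median change of all transcripts was 0.04 on the log2 scale. The lists differed in the size of their changes. The higher list had a median log2 change of 2.21 (interquartile range 1.58 to 3.05), a median fold of 4.64. The lower list had a median of −0.75 (interquartile range −0.95 to −0.60), a median fold of 0.594. The number of calls depended on the test, with 406 higher and 402 lower in edgeR and 2513 higher and 1172 lower in DESeq2. Without the libraries in which 1 transcript exceeded 50% of counts the calls numbered 168 higher and 429 lower, and without the depolarized Pan pair of replicate 1 there were 313 in all.

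The higher list was made up of less abundant transcripts than the lower list. Its median mean abundance was 2.40 log2 CPM, against 6.17 log2 CPM for the lower list and 0.85 log2 CPM for all transcripts tested. Per kilobase, in the inputs of depolarized PSD95 cultures, which take no part in the comparison, the median level was 1.75 CPM per kb for the higher list, 30.4 CPM per kb for the lower list and 1.38 CPM per kb for all transcripts. Spread between lysates followed abundance, with a median SD of 1.02 in the higher list, 0.306 in the lower list and 1.65 over all transcripts. A change had to be larger to be called at low abundance, and the medians of the lists cannot be compared as if both had been measured with the same error.

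The following counts describe the libraries on which the lists were selected. Of the higher list, 838 of 922 were higher in the pulldown in 4 of 4 lysates, beside 4635 of all 34696 transcripts tested, and in 683 every pulldown lay above every input, an arrangement found in 6.33% of all transcripts tested. Of the lower list, 939 of 1157 were lower in 4 of 4 lysates, beside 2836 of all tested, and in 425 the groups did not overlap, an arrangement found in 2.56% of all transcripts tested. In 71 transcripts of the higher list no count was found in any of the 4 inputs, and in 38 of the lower list none was found in any of the 4 pulldowns. Over all 34696 transcripts tested these numbers were 2604 and 1139, which are shares close to those of the lists. Setting those transcripts to a floor of 3 counts over the group left the list medians at 2.21 and −0.75. Estimated counts were whole in all 32 libraries, within a tolerance of 0.001, in 62 of 922 higher transcripts (6.72%), in 294 of 1157 lower transcripts (25.4%) and in 10.9% of all transcripts. For members whose counts are not whole, reads were divided among overlapping models by the authors' estimation, so a difference may belong to another isoform of the same gene.

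**Figure D2:**
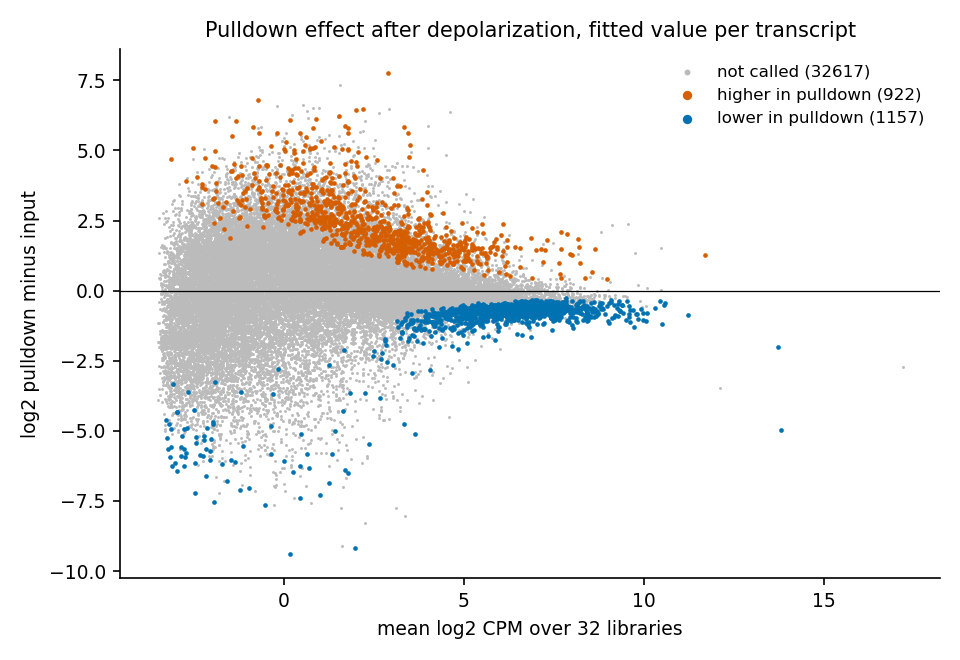
Fitted log2 difference between pulldown and input after depolarization (y axis) against the mean log2 CPM over 32 libraries (x axis), 1 point per transcript tested. Orange points are the 922 transcripts called higher and blue points the 1157 called lower. Higher calls lie mostly at low and middle abundance and have large differences, and lower calls lie at higher abundance with a median of −0.75.

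By the rule used for naming transcripts, which goes by the smallest p, uc008gfj.2 and uc008nqd.1 were named among the higher calls and uc007xok.1 and uc007gge.2 among the lower ones. The changes of both named higher transcripts are small for their list, in which the 10th percentile was 1.28 and the median 2.21. The first of them, uc008gfj.2 (6982 nt), had 4749, 3770, 4935 and 3988 CPM in pulldowns of lysates 1 to 4, against 1694, 1852, 2461 and 1297 CPM in inputs. Every pulldown of uc008gfj.2 exceeded every input. The lysate mean was 1.28 ± 0.32 on the log2 scale (SD, n = 4), and the fit gave 1.27 (SE 0.13, adjusted p = 1.73e-06), with an adjusted p of 1.46e-05 in edgeR. The call held in 20 alternatives and was lost in 5, with adjusted p of 0.111 without the depolarized Pan pair of replicate 1, 0.122 without the dominant transcripts, 0.329 with no filter, 0.579 with the states of the descriptions and 0.967 with no replicate block.

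For uc008nqd.1 (5864 nt) the pulldowns had 468, 238, 227 and 307 CPM and the inputs 185, 93.2, 142 and 120 CPM. The pulldowns again exceeded all inputs, although lysate 3 gave a smaller difference (0.68) than the other lysates (1.34, 1.35 and 1.35). The lysate mean was 1.18 ± 0.33, and the fit gave 1.29 (SE 0.17, adjusted p = 4.71e-05). The call of uc008nqd.1 was lost without the depolarized Pan pair of replicate 1 (adjusted p = 0.0745) and with no replicate block (adjusted p = 0.394).

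Among the lower calls, uc007xok.1 (1591 nt) had 1488, 1533, 1164 and 1239 CPM in pulldowns and 2824, 2383, 2378 and 1904 CPM in inputs. As a share of all counts the groups overlapped, and uc007xok.1 was higher in the pulldown of lysate 4. That pulldown had 29466 of 15415215 counts and its input 1841 of 6877460. On the TMM scale all 4 pulldowns of uc007xok.1 lay below all 4 inputs, and the lysates gave −0.92, −0.64, −1.03 and −0.62. The lysate mean was −0.80 ± 0.21, and the fitted value of −1.18 (SE 0.03, adjusted p = 2.95e-18) lay outside the range of the 4 lysates. The trend of spread against abundance reached 0 at a log2 count of 15.3, which gives extreme weights to single libraries of very abundant transcripts. With the trend held constant above a log2 count of 10.7 the fit gave −0.79 (adjusted p = 0.0033), and edgeR gave −0.81 (adjusted p = 0.00248). Within the 8 libraries the weights of uc007xok.1 differed 77570 times. Those of uc008gfj.2 differed 1572000 times, of uc007gge.2 1228 times and of uc033jng.1 443500000 times. With the trend held constant uc008gfj.2 was at 1.28 (adjusted p = 3.32e-05), and uc033jng.1 at −2.87 did not pass (adjusted p = 0.108).

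The other lower call, uc007gge.2 (3100 nt), had 916, 1042, 524 and 665 CPM in pulldowns and 2108, 1746, 1151 and 1265 CPM in inputs. As a share of all counts the groups again overlapped, with 15807 of 15415215 counts in the pulldown of lysate 4 and 1223 of 6877460 in its input. On the TMM scale the highest pulldown of uc007gge.2 lay below the lowest input. The lysate mean was −1.0 ± 0.21, which is 0.499 times the input level. The fit gave −1.30 (SE 0.08, adjusted p = 3.17e-10), and with the trend held constant it gave −1.03 (adjusted p = 0.00017). With library totals in place of TMM neither lower call passed, at −0.46 for uc007xok.1 (adjusted p = 0.268) and −0.64 for uc007gge.2 (adjusted p = 0.0959).

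**Figure D3:**
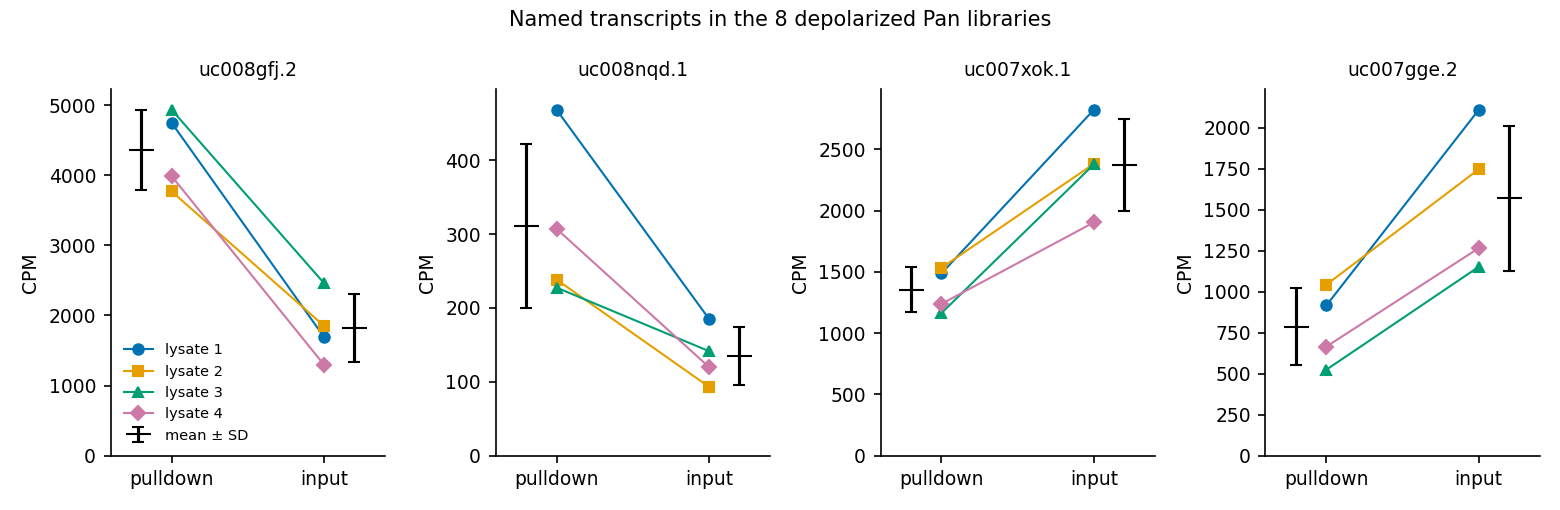
CPM (y axis, from 0) of the 4 named transcripts in the pulldown and the input of each depolarized Pan lysate. Lines join the pair of a lysate and black bars are the mean ± SD over 4 lysates. On this scale, with TMM library sizes, the pulldowns of uc008gfj.2 and uc008nqd.1 lie above all inputs. Those of uc007xok.1 and uc007gge.2 lie below all inputs, which does not hold as a share of all counts.

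The 4 named transcripts moved in the same direction in cultures that share no library with these 8. In resting Pan cultures the lysate means were 1.21 for uc008gfj.2, 0.89 for uc008nqd.1, −0.56 for uc007xok.1 and −0.52 for uc007gge.2. In depolarized PSD95 cultures they were 1.18, 0.86, −1.05 and −1.12 in the same order of transcripts.

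The whole lists were then read in those other cultures. In resting Pan cultures the higher list had a median change of 1.20 and the lower list of −0.50, beside 0.13 for all transcripts tested. Of the 922 higher transcripts 891 (96.6%) had a positive change there, beside 55.1% of all transcripts, and of the 1157 lower transcripts 1107 (95.7%) had a negative one, beside 44.9% of all. In depolarized PSD95 cultures the medians were 1.33 and −0.76, beside 0.08 for all, with 902 of 922 positive (97.8%, beside 52.6% of all) and 1118 of 1157 negative (96.6%, beside 47.4% of all). The medians of the higher list were smaller in both than the 2.21 on which its members had been selected, whereas the lower list in depolarized PSD95 cultures kept a median near the −0.75 on which it was selected. The lower list is more abundant than all transcripts (medians of 6.17 and 0.85 log2 CPM). In resting Pan cultures abundant transcripts were lower as a class, at −0.25 for 10 to 100 CPM per kb and −0.60 for 100 or more. All transcripts are therefore not a matched background for that list.

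Calls overlapped in part. All came from the same fit, which shares the estimated spread of a transcript, so calls in different cultures are not independent. In resting Pan cultures 1334 transcripts were called higher (3.84% of those tested) and 1320 lower (3.8%). Of these, 419 were also called higher after depolarization, which is 45.4% of the depolarized Pan list and 31.4% of the resting list, and 708 were also called lower, which is 61.2% and 53.6% of the lists. In depolarized PSD95 cultures 1546 were called higher (4.46%) and 2000 lower (5.76%), and the shared calls were 525 higher (56.9% of the Pan list, 34.0% of the PSD95 list) and 917 lower (79.3% and 45.9%). Opposite calls were rare, with 4 of the lower list called higher in resting Pan cultures and 1 in depolarized PSD95 cultures, and 0 of the higher list called lower in either. In all 3 kinds of culture 356 transcripts were called higher and 681 lower.

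Summed over the list, the higher transcripts made up 26922, 22100.4, 31787 and 28272 CPM of the depolarized Pan pulldowns and 10198, 9781, 12714 and 8793 CPM of their inputs, values on which the list was selected. In resting Pan cultures the same transcripts had a log2 ratio of summed CPM of 1.13 ± 0.12 (SD, n = 4), and in depolarized PSD95 cultures of 1.21 ± 0.18. The lower list, without the dominant transcripts, had −0.46 ± 0.15 in resting Pan cultures and −0.72 ± 0.11 in depolarized PSD95 cultures. Each of these ratios had 1 sign in 4 of 4 lysates (exact sign-flip p = 0.13 each).

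The lists were also read for the response to KCl in inputs of PSD95 cultures. That contrast compares none of the 8 libraries, but it came from the same fit, which shares the estimated spread of a transcript. The higher list had a median KCl change of 0.38 and the lower list of −0.03, beside 0.08 for all transcripts. Of the higher list 49 transcripts (5.31%) were called up by KCl and 2 (0.217%) down. Of the lower list 44 (3.80%) were called up and 79 (6.83%) down. Among all transcripts 385 (1.11%) were called up and 322 (0.928%) down. Calls in both contrasts are thus not independent. Both lists are also more abundant than all transcripts (medians of 2.40 and 6.17 against 0.85 log2 CPM), so the shares called are not comparable on their own.

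The calls differed with the level of the transcript. Levels were taken per kilobase from the inputs of depolarized PSD95 cultures, so that the error of the 8 libraries did not enter the classes. Of the 264 transcripts at 100 CPM per kb or more, 185 (70.1%) were lower in the pulldown and 3 (1.14%) higher. Of the 4543 at 10 to 100 CPM per kb, 819 (18.0%) were lower and 81 (1.78%) higher. At 1 to 10 CPM per kb the balance was the other way, with 101 of 14923 lower (0.677%) and 538 higher (3.61%). From above 0 to 1 CPM per kb 42 of 13676 were lower and 299 higher, and at 0 CPM per kb 10 of 1290 were lower and 1 higher. Abundant transcripts also have less error, so the shares called are not comparable between classes on their own, and the median change of each class is given as well.

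In single lysates, the median change of the class at 100 CPM per kb or more was −0.62, −0.34, −0.76 and −0.30 in lysates 1 to 4. The mean was −0.50 ± 0.22 (SD, n = 4), lower in 4 of 4 lysates (exact sign-flip p = 0.13). The class at 10 to 100 CPM per kb had −0.41, −0.19, −0.37 and −0.08, a mean of −0.26 ± 0.15, also lower in 4 of 4. Transcripts under 1 CPM per kb, which include those at 0, had medians of 0.40, 0.00, 0.42 and 0.94, a mean of 0.44 ± 0.38 (exact sign-flip p = 0.25). After the pulldown and input of each lysate were thinned to 1 total, the most abundant class had −0.50 ± 0.22 and the class under 1 CPM per kb 0.18 ± 0.21. Only the totals outside the dominant transcripts were matched. The lower mean of the rarest class after thinning came from lysate 4, where the median was 0.00 after thinning and 0.94 before. Lysates 1 to 3 had 0.37, 0.00 and 0.34 after thinning. A transcript without counts in both libraries of a lysate has a difference of 0.00 by construction. A median of exactly 0.00, as in lysate 2 and in thinned lysate 4, therefore gives no size for the change of this class.

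The median change of the most abundant class depended on the scaling. It was −0.66 in the fit, −0.52 in edgeR, −0.46 in DESeq2, −0.54 with RLE size factors and −0.12 with library totals. The median of all transcripts was 0.04 in the fit, 0.22 in edgeR, 0.28 in DESeq2, 0.14 with RLE and 0.68 with library totals. A scaling shifts all transcripts of a library alike, so the distance of the class from that median is nearly fixed and is no check of the direction. Relative to it, the class at 100 CPM per kb or more was at −0.70 in the fit, −0.75 in edgeR, −0.74 in DESeq2, −0.67 with RLE and −0.80 with library totals. The number called did depend on the zero point, since 103 of 264 passed in edgeR, 145 in DESeq2, 168 with RLE and 1 with library totals. The lower list as a whole was at −0.79 relative to all transcripts in the fit and at −0.86 with library totals. With library totals, however, only 46 transcripts were called lower, 36 of them from the list. Of the 1157 in the list, 959 kept a negative change there.

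Within the most abundant class the number called lower is given by length, and differences between the lengths were not tested. It was 76 of 107 transcripts at 300 to under 1000 nt, 59 of 78 at 1000 to under 2000 nt, 30 of 44 at 2000 to under 4000 nt, 13 of 20 at 4000 to under 8000 nt and 6 of 8 at 8000 nt or more, and 1 of 7 under 300 nt. For comparison with other cultures, the same class had a mean of −0.60 in resting Pan cultures, and the difference, depolarized minus resting, was 0.10 ± 0.18 (SD over 4 numbers, exact sign-flip p = 0.5). With levels from resting PSD95 inputs (260 transcripts), the mean was −0.49 in depolarized Pan and −0.82 in depolarized PSD95 cultures. That difference of 0.33 ± 0.14 was positive in 4 of 4 (exact sign-flip p = 0.13, the smallest possible), that is, the median was less negative in Pan than in PSD95 cultures at each replicate number.

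**Figure D4:**
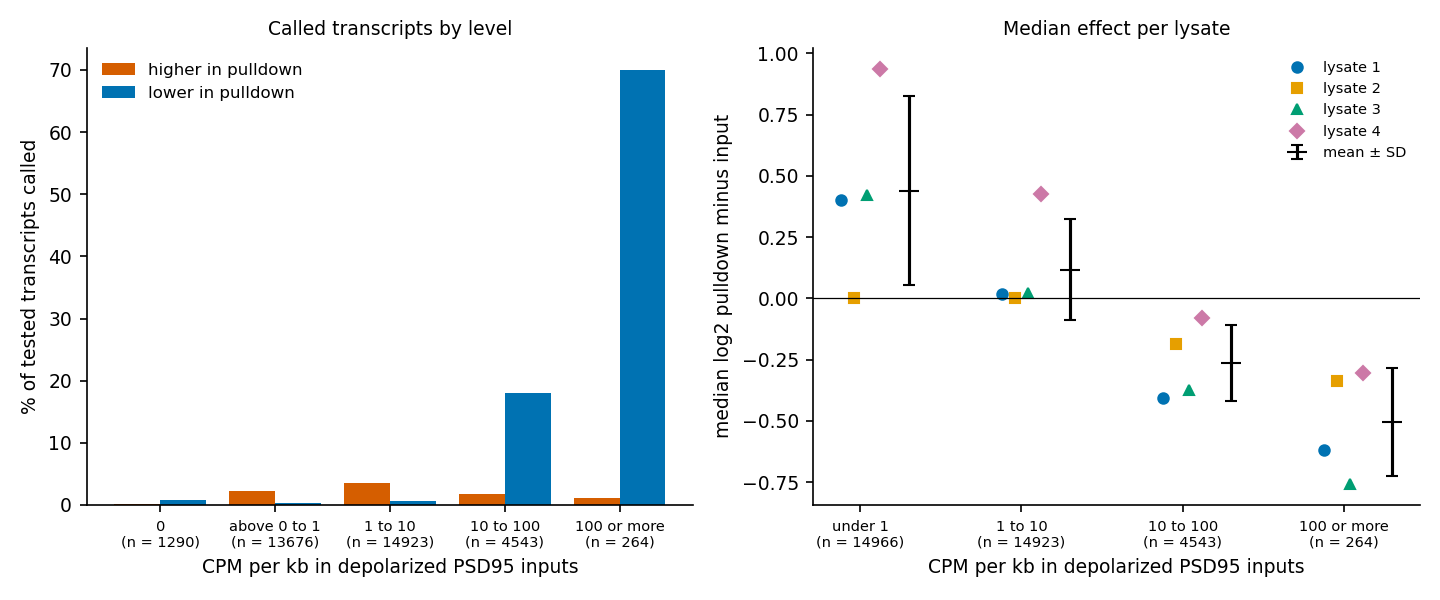
Left, the share of transcripts called higher (orange) and lower (blue) in depolarized Pan pulldowns, by level in depolarized PSD95 inputs (CPM per kb, number of transcripts in brackets). Right, the median log2 difference between pulldown and input in each lysate and the mean ± SD over 4 lysates, for classes with everything under 1 CPM per kb joined. At 100 CPM per kb or more 70.1% were called lower and the 4 lysate medians lie between −0.76 and −0.30.

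The relation with transcript length was weak. Over 7288 abundant transcripts (200 or more counts on average over the 32 libraries), Spearman's rho between length and the log2 change was 0.118, 0.046, 0.180 and 0.054 in lysates 1 to 4, a mean of 0.099 ± 0.063 (SD, n = 4) and positive in 4 of 4 (exact sign-flip p = 0.13). The transcripts of a lysate share its library, depth and composition, so these values describe a lysate and are not replicates. The mean rho was 0.120 in resting Pan and 0.142 in depolarized PSD95 cultures, and the differences from depolarized Pan were −0.020 (exact sign-flip p = 0.875) and −0.042 (p = 0.375 in the same test). Over all 34696 transcripts tested the 4 values were between −0.022 and −0.007.

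By length class, relative to the median of the 7288 transcripts, the 301 transcripts of 300 to under 1000 nt were at −0.24 ± 0.14 and the 926 of 1000 to under 2000 nt at −0.12 ± 0.04, lower in 4 of 4 lysates in both. The 2733 of 2000 to under 4000 nt were at 0.01, the 2701 of 4000 to under 8000 nt at 0.05 ± 0.04 and the 618 of 8000 nt or more at 0.06 ± 0.05. The class of 8000 nt or more changed direction to −0.11 when transcripts averaging 20 or more counts were admitted. On the log2 scale of the deposited TPM plus 1 it was at −0.13, rho had a mean of −0.087 and transcripts under 1000 nt were at 0.11. TPM in these libraries is dominated by uc033jng.1, which averaged 596794 of 1000000 TPM in pulldowns and 771593 in inputs.

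The shortest class went the other way from its neighbours. The 9 abundant transcripts under 300 nt had medians of 1.60, 1.58, 1.42 and 2.23 relative to all 7288, a mean of 1.71 ± 0.36, higher in 4 of 4 lysates (exact sign-flip p = 0.13). Of the 9, 7, 9, 6 and 8 lay above the median of the abundant transcripts in lysates 1 to 4. Their changes were wide, from −7.34 for uc033jng.1 to 2.93 in lysate 4 and from −0.05 to 4.34 in lysate 2. Among all tested transcripts under 300 nt, 21 of 252 were called higher and 1 lower, beside 34 higher and 143 lower of 2476 at 300 to under 1000 nt. The mean fragment of the pulldowns, at 142 to 159 nt, is longer than uc033jng.1 and shorter than that of the inputs, and the part of fragment length in this class was not tested.

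**Figure D5:**
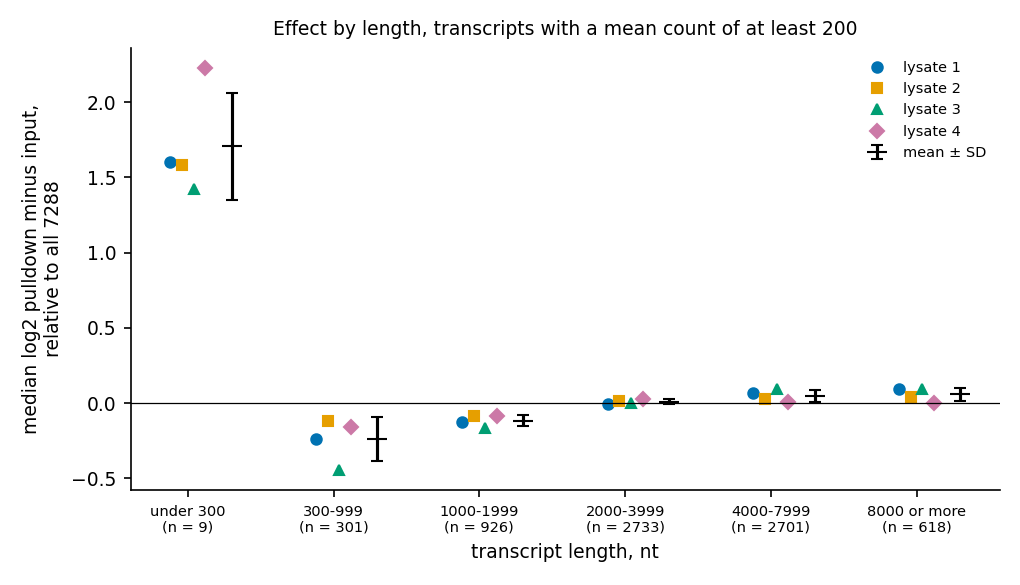
Median log2 difference between pulldown and input of each length class, relative to the median of all 7288 abundant transcripts, in each depolarized Pan lysate (points) with the mean ± SD over 4 lysates (black). Transcripts of 300 to under 2000 nt lie below 0 in 4 of 4 lysates, and the 9 transcripts under 300 nt lie between 1.42 and 2.23.

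Transcripts under 1000 nt, as 1 class, differed in size from the other cultures. The 310 of them were at −0.23 ± 0.15 in depolarized Pan cultures, at −0.50 ± 0.10 in resting Pan cultures and at −0.48 ± 0.14 in depolarized PSD95 cultures. The difference was 0.27 ± 0.21 from resting Pan and 0.25 ± 0.14 from depolarized PSD95 cultures, positive in 4 of 4 in both (exact sign-flip p = 0.13 each). Grouped by title, the median of these short transcripts was thus less negative in depolarized Pan cultures at each of 4 replicate numbers. The design cannot reach 0.05. At number 2, whose descriptions name the other state, it was −0.10 in depolarized and −0.61 in resting Pan cultures. Grouped by description these values change places, so number 2 then goes the other way, and the depolarized Pan mean was −0.36. At number 3 the values were close, at −0.437 in depolarized and −0.444 in resting Pan cultures. The sign in 4 of 4 thus depends on the labels of number 2. Mean differences from the other cultures were not computed in that grouping, so a difference between the states is not established.

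In all, 2 transcripts passed the test of whether the Pan pulldown effect itself differed between depolarized and resting cultures, which is 0.00576% of the 34696 tested, and 2179 had an unadjusted p under 0.05. In both the pulldown effect was more negative after depolarization, and both were named after their values were seen. The first, uc007xok.1, had 1198, 912, 844 and 1270 CPM in resting pulldowns and 2131, 1377, 1277 and 1458 CPM in resting inputs, beside the depolarized values above. The fitted difference of its pulldown effects was −0.43 (SE 0.03, adjusted p = 4.9e-08). In the lysates the difference averaged −0.25 ± 0.21 and was negative in 4 of 4.

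The second, uc009ozx.3 (2104 nt), had 868, 876, 759 and 1037 CPM in depolarized pulldowns and 1476, 1181, 1235 and 1368 CPM in depolarized inputs. At rest it had 901, 778, 649 and 1107 CPM in pulldowns and 1164, 975, 977 and 1342 CPM in inputs. The fitted difference was −0.42 (SE 0.06, adjusted p = 0.0106) and the lysate mean −0.18 ± 0.14, negative in 4 of 4. Grouped by description, the limma fit called neither transcript. The difference was then −0.26 for uc007xok.1 (adjusted p = 0.849) and −0.36 for uc009ozx.3 (adjusted p = 0.45). In that grouping the lysate difference at number 2 changes sign for both. Neither call held when the trend of spread against abundance was kept constant at high counts (adjusted p of 0.916 for uc007xok.1 and 0.923 for uc009ozx.3), and in edgeR both had an adjusted p of 1.

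Between Pan and PSD95 cultures after depolarization, limma called 0 transcripts as differing in their pulldown effect, with a smallest adjusted p of 0.242, and 1815 had an unadjusted p under 0.05. The same test gave 1 call in edgeR and 561 in DESeq2. The state difference gave 1 call in edgeR and 610 in DESeq2, whose median fitted changes of 22.5 among those higher and −25.1 among those lower are far beyond the range of the named transcripts.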

How the data were processed

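RNA of 32 libraries (8 groups of 4 biological replicates) was sequenced after ribosomal RNA depletion with a stranded kit from about 100 ng RNA. The authors deposited expected counts (estimated counts per transcript model from Salmon, version not given in the sources used here) and TPM for 51884 UCSC models of mm10; the submitters' processing notes also name limma and DESeq. TPM sums to 1000000 in each library, and the deposited TPM served only as an alternative scale.

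Estimated counts were rounded and analysed at the transcript level with limma 3.58.1 and edgeR 4.0.16 in R 4.3.3. Transcripts were kept by filterByExpr, scaled by TMM and fitted by voomWithQualityWeights with group and replicate number over all 32 libraries. The study's methods name filterByExpr, voomWithQualityWeights and a term for replicate, but group the pulldowns and keep the longest transcript of a gene; here inputs and all transcript models entered the fit. Errors of contrasts were computed exactly under the weights, since the usual shortcut ignores how weights differ within a transcript. P-values were adjusted over all transcripts tested (Benjamini-Hochberg, two-sided, 0.05). Per-library CPM used TMM, and per-lysate log2 differences a prior count of 2. Values over 4 lysates were tested by exact two-sided sign flips. The scripts were tested on simulated data. DESeq2 1.42.0, edgeR's quasi-likelihood test, other scalings and filters, and libraries left out were tried as alternatives.

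The replicate block was the replicate number, shared by all 8 groups, as the study's methods name a term for replicate. A level of it joins libraries of several lysates, so the main fit does not pair a pulldown with its own input. The per-lysate differences do, and the lysate as block was an alternative. Deviations from the group means correlated at 0.124 on average within a number (0.019 to 0.175) and at −0.0386 between numbers (−0.153 to 0.079). The deviations sum to 0 over the 4 numbers, so the mean between numbers is tied to that within a number and is no separate check. Pulldown 4 correlated at 0.079 with input 3 and at 0.019 with its own input. Within both groups of depolarized Pan libraries no pair of replicates was identical, and each pair differed by more than sampling noise (chi-square per degree of freedom of 52.4 to 530). Titles and treatment labels gave the groups. The descriptions of 8 libraries, all of replicate 2 and 2 of them among these 8, name the other state, and regrouping by descriptions was an alternative.

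Transcripts were named by rule: in each contrast the 2 higher and 2 lower with the smallest p among those with adjusted p of 0.05 or less, mean log2 CPM of at least 1, an absolute log2 difference of at least 0.5 and, for pulldown against input, 1 direction in 4 of 4 lysates, plus any averaging over 1% of counts in the 8 libraries. The libraries, classes and lists were chosen with earlier results of these data known. Sign-flip tests were not adjusted for their number. Intervals and floors cover counting error only.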

Additional observations from a re-analysis of the deposited data

Results flagged for a closer look

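The following 2 results were picked out because the Pan pulldown effect differed between depolarized and resting cultures in a test of the difference itself. For uc007xok.1 the difference was −0.43 on the log2 scale (lysate mean −0.25 ± 0.21, negative in 4 of 4), and for uc009ozx.3 it was −0.42 (lysate mean −0.18 ± 0.14, negative in 4 of 4). Both are among 36 transcripts whose weights differed by more than 1000 times within the 8 libraries, and neither passed with the trend of spread held constant at high counts. With that trend the adjusted p was 0.916 for uc007xok.1 and 0.923 for uc009ozx.3. Neither passed in limma with the states of the descriptions, with adjusted p of 0.849 and 0.45 in the same order. The sign in 4 of 4 holds only for the grouping by title.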

How the results depend on the processing

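The 2079 calls of pulldown against input (922 higher, 1157 lower) numbered 808 in edgeR's quasi-likelihood test (406 higher, 402 lower), 3685 in DESeq2 (2513 higher, 1172 lower), 647 with no replicate block (463 higher, 184 lower), 597 without libraries in which 1 transcript exceeded 50% of counts (168 higher, 429 lower) and 371 with the 8 libraries alone under the replicate block (91 higher, 280 lower). Leaving replicates out gave 313 to 1768 calls, with 314 without replicate 1, 400 without replicate 3 and 1018 without only the depolarized Pan pair of replicate 3. The share of calls that were higher was 44.3% in the fit, 68.2% in DESeq2, 55.6% with RLE size factors, 97.5% with library totals, 58.5% at a mean CPM of at least 5, 71.6% with no replicate block, 28.1% without the libraries over 50% and 24.5% with the 8 libraries alone. Thinning and the constant trend, both chosen after seeing the data, gave 1733 and 1982 calls, and approximate contrast errors gave 2791. With the lysate as replicate block, which pairs each pulldown with its own input, there were 1583 calls (604 higher, 979 lower). The state difference (2 calls) gave 1 in edgeR, 610 in DESeq2, 6 with RLE, 0 with library totals, 5 without quality weights, 96 with no filter, 0 at a mean CPM of at least 5, 0 with no replicate block, 10 with the lysate as replicate block, 4 without the dominant transcripts, 4 without the libraries over 50%, 0 with the constant trend, 5 with approximate errors and 0 to 5 with a replicate left out. With the states of the descriptions it gave 3, and 0 of the 2 calls were among them. The construct difference (0 calls) gave 1 in edgeR, 561 in DESeq2, 1 with RLE, 17 with no filter, 3 with the lysate as replicate block, 1 with the states of the descriptions, 1 with a length correction, 1 without the dominant transcripts, 2 without the libraries over 50%, 4 after thinning and 0 to 3 with a replicate left out. The class of 8000 nt or more turned to −0.11 at a mean count of at least 20 and to −0.13 in log2 TPM, where rho was −0.087 and the class under 1000 nt was at 0.11. With a lysate left out, rho was 0.072 to 0.117, the class under 1000 nt −0.27 to −0.16, the class of 8000 nt or more 0.04 to 0.08 and the class under 300 nt 1.53 to 1.80. Of the alternatives for single named transcripts, 162 kept the call or its absence, 55 lost a call, 3 gained one and 0 reversed. The causes of these differences were not tested. Depth limits the input of lysate 4 most.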
